A study of Homo sapiens with 26 samples.

Results

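PCBP1 and PCBP2, the poly(C)-binding proteins 1 and 2, are 2 of the 12325 transcripts counted in 26 libraries from Huh7 cells, an established human hepatocellular carcinoma line. They are paralogs, and they were chosen from their ribosome footprints in these libraries, foremost those at 1.5 µM PF-06446846 against vehicle, so for both genes the values of that contrast are a description, with no test. In study 1, cells received 0.3 µM or 1.5 µM PF-06446846, a small molecule that acts on translation of selected mRNAs, or vehicle (0.5% DMSO), for 10 or 60 min, with 3 ribo-seq libraries in each of the 6 groups. In study 2, cells received 1.5 µM or vehicle for 60 min, with 2 ribo-seq and 2 mRNA-seq libraries per treatment. Per the study, a sample of study 2 gave both kinds of library. All groups share the Huh7 line, which limits them to 1 genetic background, and none carries an introduced allele. Total CDS reads ran from 6414227 to 22224137 per library, and AFP and APOA1, genes that mark liver-derived cells, measured at least 2704 and 1102 RPM in every library (RPM, reads scaled to the library's total CDS reads).

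Poly(C)-binding proteins carry KH domains, which grip short stretches of single-stranded RNA rich in cytosine. In the cytoplasm they influence the stability and translation of the mRNAs that they bind, and in the nucleus they take part in splicing. Both proteins also act as iron chaperones that hand iron to ferritin and to iron-dependent enzymes. Ribosome profiling sequences the mRNA fragment that a ribosome protects, so the place of a read within the coding sequence (CDS) marks the codon in the ribosomal P-site.

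PCBP1 (ENST00000303577) has 1 exon, chr2:70087477-70089203 on the plus strand of GRCh38, with 356 codons before the stop codon. PCBP2 (ENST00000359282) has 14 exons, 13 of them coding, at chr12:53452102-53479826 on the plus strand, with 331 codons before the stop codon. Of 329 aligned codons, 285 (86.6%) encode the same amino acid and 182 are the same triplet. The first 50 codons of both are shown because the footprints that moved with treatment lie there. They are spliced for PCBP2, GENCODE annotation, and the capitals mark codons 20 and 32.
PCBP1: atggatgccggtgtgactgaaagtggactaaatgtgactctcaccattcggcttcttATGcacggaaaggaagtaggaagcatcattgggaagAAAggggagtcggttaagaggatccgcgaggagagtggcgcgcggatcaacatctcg
PCBP2: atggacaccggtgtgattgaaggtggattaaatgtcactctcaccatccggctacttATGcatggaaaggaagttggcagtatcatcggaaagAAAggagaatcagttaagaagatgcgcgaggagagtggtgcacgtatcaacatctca
The PCBP1 stretch is chr2:70087744-70087893, and the PCBP2 stretch lies within chr12:53454801-53455908. Codon 20 is ATG, a methionine codon, in both, and codon 32 is AAA, a lysine codon, in both. From codon 9 to codon 33 all 25 codons encode the same amino acids, although only 14 are the same triplet. In PCBP2, codon 20 lies in exon 2 (chr12:53454858-53454860) and codon 32 is the first codon of exon 4 (chr12:53455461-53455463). In PCBP1 the same codons lie in its single exon, at chr2:70087801-70087803 and chr2:70087837-70087839.

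Because reads were reported at every equally good alignment, a read from a stretch common to both paralogs counts for both. A codon was therefore called a gene's own where none of the 3 aligned read starts of 23 bases that give it occurs in the other transcript. All of the first 50 codons are own in both genes, and after codon 50 there are 301 own of 307 codons in PCBP1 and 276 of 282 in PCBP2. The longest identical run, which holds the shared codons, is 33 bases and is shown because reads that lie wholly within it cannot be assigned.
shared run: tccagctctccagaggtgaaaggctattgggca
It spans PCBP1 codons 262 to 272 and PCBP2 codons 235 to 245. At the 3 codons shared by both, the counts were equal in 59 of 78 codon and library pairs, against 281 of 8270 (3.40%) where both codons were own. No other of the 11268 transcripts with a sequence holds such a read start. At codon 20 the aligned read starts of the paralogs differ at 3 bases, and at codon 32 at 4 to 5 bases.

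With vehicle, both genes were read at similar footprint levels after codon 50, and with 1.5 µM fewer reads lay there while more lay near codons 20 and 32. In RPM at own codons after codon 50, PCBP1 at 60 min of study 1 measured 535, 597 and 621 with vehicle and 214, 237 and 238 with 1.5 µM. PCBP2 measured 642, 677 and 666 with vehicle and 355, 352 and 328 with 1.5 µM. In both genes the groups did not overlap, and the share of all transcripts that separate in this way was not taken. The log2 fold change from edgeR's quasi-likelihood fit was -1.34 (SE 0.127) for PCBP1 and -0.93 (SE 0.114) for PCBP2. In this comparison 0.177% of the 10709 transcripts tested passed a false discovery rate of 10% (0.1), all 19 of them lower. The 19 include PCBP1 and PCBP2 themselves, counted with their shared codons kept. With the whole CDS counted, which adds the codons near the start, the fold changes were -0.84 and -0.40. With the replicate block, since same-numbered libraries deviated together, 69 passed, and the fold changes were -1.34 and -0.93.

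The lower level was already present at 10 min. PCBP1 measured 619, 585 and 678 RPM with vehicle and 194, 209 and 219 with 1.5 µM, a log2 fold change of -1.52 (SE 0.108). PCBP2 measured 727, 649 and 716 with vehicle and 237, 246 and 294 with 1.5 µM, a log2 fold change of -1.35 (SE 0.112). No 1.5 µM library reached a vehicle library in either gene, and here too the share over all transcripts was not taken. At this time 1.95% of 10745 transcripts passed, 70 higher and 140 lower, but this count rests on single libraries. It was 1675 without vehicle replicate 3 and 26 to 131 without any one of the other 5 libraries, and DESeq2 called 611. In study 2 PCBP1 measured 664 and 639 with vehicle and 262 and 250.5 with 1.5 µM, and PCBP2 580 and 567 against 319 and 294. The log2 fold changes were -1.35 (SE 0.0608) and -0.91 (SE 0.0634), where 0.264% of 10993 transcripts, or 29, passed, and 134 did without 1.5 µM replicate 5.

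**Figure D1:**
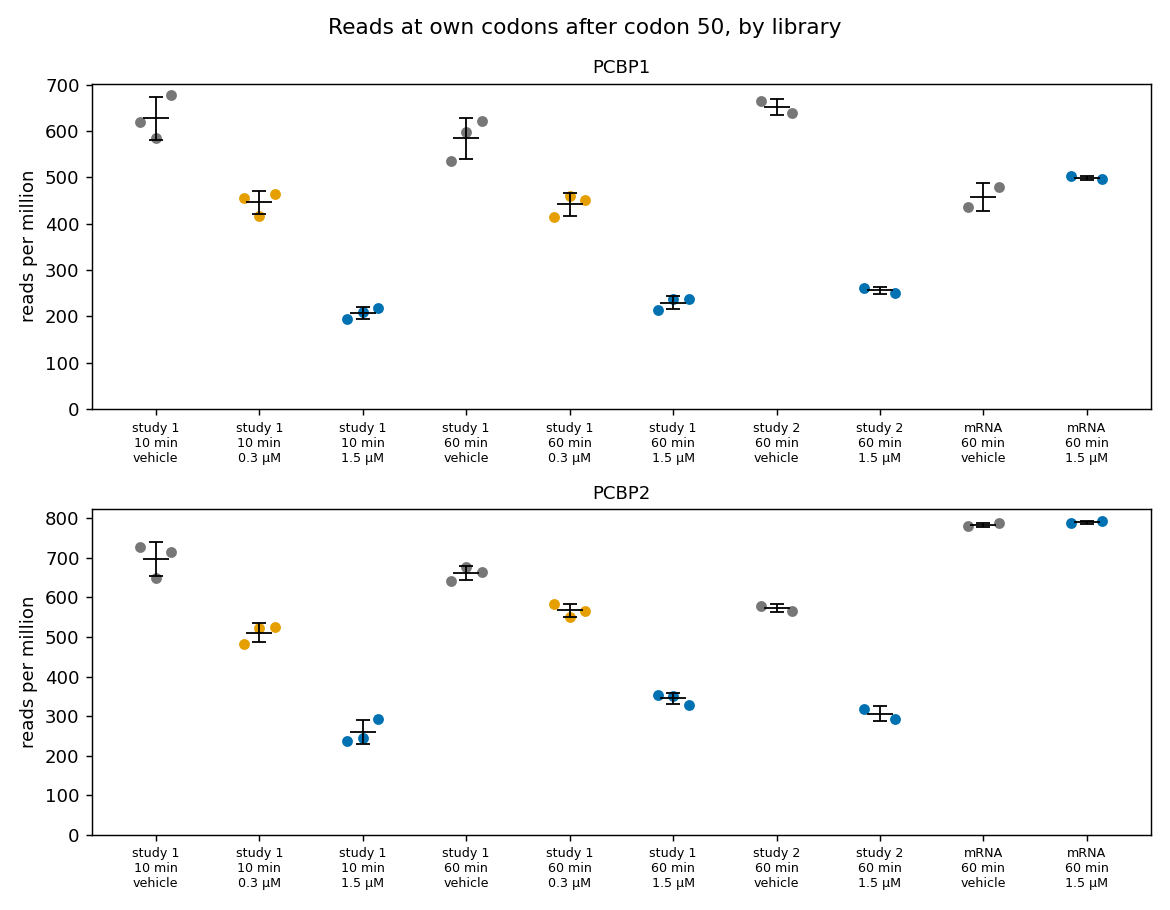
RPM at own codons after codon 50 (vertical axis, from 0) in each library, by study, time and treatment (horizontal axis), for PCBP1 above and PCBP2 below. Points are libraries, and bars are the mean ± SD of 2 or 3. The 1.5 µM ribo-seq libraries lie below all vehicle ribo-seq libraries, while the mRNA-seq points at the right are not lower with 1.5 µM.

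By the difference in mean RPM between 1.5 µM and vehicle, codon 20, the methionine codon in capitals above, had the largest increase in both genes at both times and in both studies. At 60 min of study 1 PCBP2 measured 2.81, 3.61 and 3.47 RPM there with vehicle and 34.2, 25.7 and 50.4 with 1.5 µM. PCBP1 measured 6.55, 5.03 and 4.76 with vehicle and 14.5, 12.01 and 19.2 with 1.5 µM. The treated libraries were all above the vehicle libraries, by 11.2 times in the mean for PCBP2 and by 2.80 times for PCBP1. These rest on 18 to 56 reads per vehicle library in PCBP2 and 42 to 78 in PCBP1. At 10 min the means were 36.5 ± 5.08 (SD, n = 3) against 4.14 ± 0.753 in PCBP2, and 18.0 ± 1.34 against 4.34 ± 1.45 in PCBP1. In study 2 they were 37.1 ± 5.85 (SD, n = 2) against 2.90 ± 0.435 in PCBP2, and 10.9 ± 0.189 against 2.42 ± 0.393 in PCBP1. In PCBP1 the rise at 60 min of study 1 was spread over neighbouring codons. It was 9.79 RPM at codon 20, 8.86 at codon 19, 8.38 at codon 21 and 6.80 at codon 22. In PCBP2 it was 33.5 RPM at codon 20 and 16.2 at codon 19.

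Codon 32 gave the second largest increase in PCBP2 and the fifth in PCBP1 at 60 min of study 1. PCBP2 at 60 min of study 1 measured 4.05, 1.095 and 2.38 RPM with vehicle and 35.5, 23.6 and 24.0 with 1.5 µM, and PCBP1 3.59, 0.902 and 1.88 against 10.8, 8.29 and 5.60. The peak was less tall in study 2. PCBP2 there measured 4.59 and 4.44 with 1.5 µM against 0.146 and 0.563 with vehicle, while its codon 20 stood as high as in study 1. At codon 33 the PCBP2 groups overlapped in study 1 at 60 min, with 16.9, 9.15 and 6.93 RPM at 1.5 µM and 9.35, 4.45 and 8.53 with vehicle. The studies were run apart and the difference between them was not tested.

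**Figure D2:**
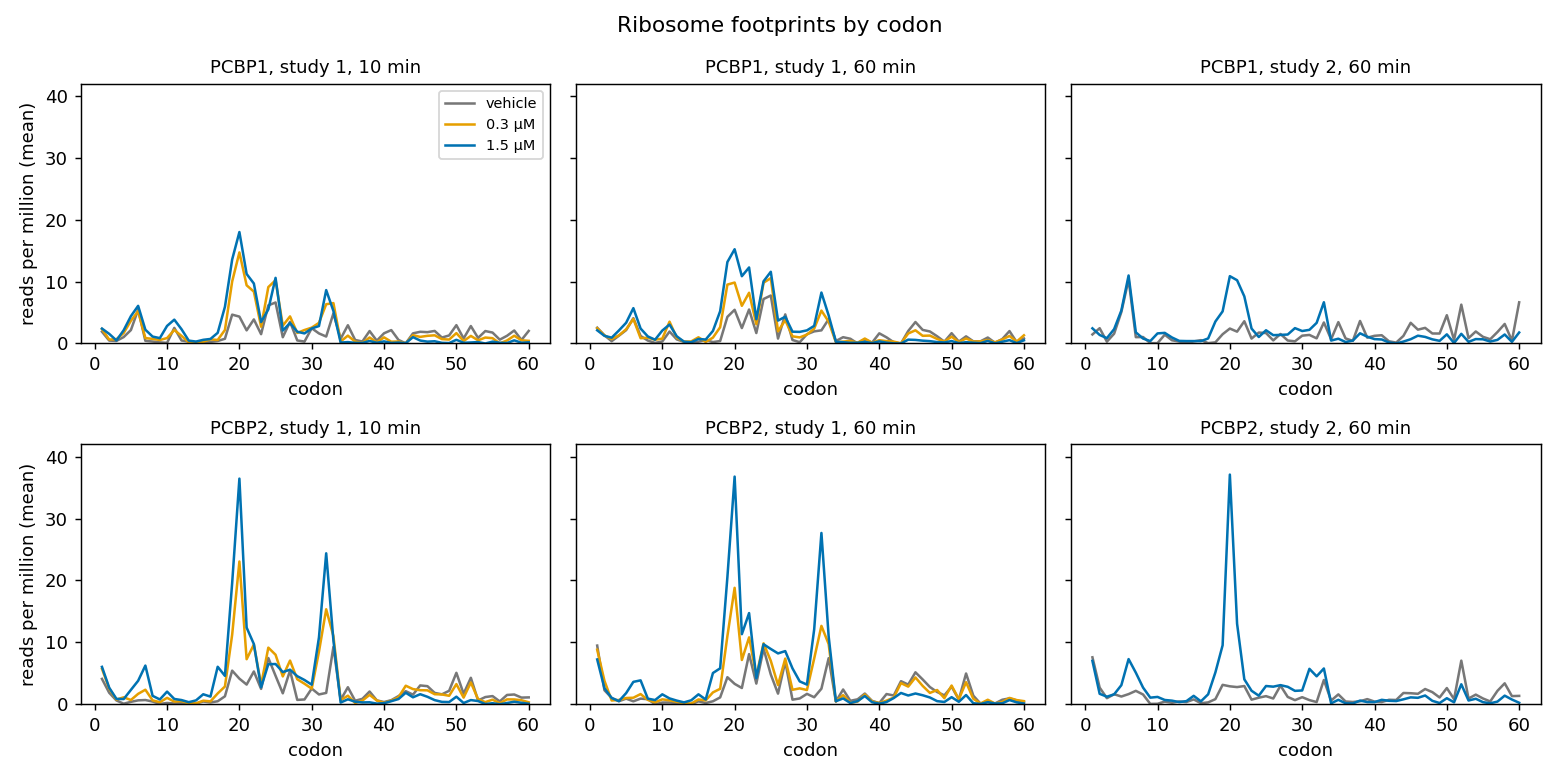
Mean RPM (vertical axis, from 0) at codons 1 to 60 (horizontal axis) for PCBP1 above and PCBP2 below, in study 1 at 10 and 60 min and in study 2 at 60 min, with vehicle in grey, 0.3 µM in orange and 1.5 µM in blue. At 1.5 µM PCBP2 reaches 36.8 at codon 20 and 27.7 at codon 32 in study 1 at 60 min, and in study 2 the codon 20 peak is 37.1 and the codon 32 peak 4.52.

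Summed over codons 17 to 33, reads at 60 min of study 1 were 224% of vehicle in PCBP1 (114 ± 13.7 RPM against 50.8 ± 10.7, SD, n = 3) and 328% in PCBP2 (197 ± 28.8 against 60.1 ± 11.7). Over codons 34 to 50 they were 23.5% in PCBP1 and 42.4% in PCBP2. From codon 51 on the level was even along the gene. PCBP1 stood at 36.3%, 40.5% and 39.8% of vehicle over codons 51 to 150, 151 to 250 and 251 to 357. PCBP2 stood at 48.7%, 56.8% and 48.3% over codons 51 to 150, 151 to 250 and 251 to 332. Reads over codons 1 to 16 were 158% of vehicle in PCBP1 and 160% in PCBP2.

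Codon by codon, among codons with a mean of at least 10 reads, 13 of 26 in the first 33 codons of PCBP1 were higher in every 1.5 µM library at 60 min than in every vehicle library, and 15 of 26 in PCBP2. Over all transcripts 4.32% of 183206 such codons were higher in this way and 3.95% lower. After codon 33 none was higher in either gene, while 92 of 163 were lower in PCBP1 and 85 of 207 in PCBP2. The contrast chose the genes, so nothing is read from these shares.

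The share of a gene's CDS reads that lay at codons 1 to 50 combines both shifts, since more reads near the start and fewer after codon 50 each raise it. In PCBP1 at 60 min of study 1 it was 16.8%, 10.8% and 10.3% with vehicle and 38.3%, 37.4% and 38.6% with 1.5 µM. In PCBP2 it was 16.96%, 12.6% and 12.9% with vehicle and 39.3%, 37.5% and 44.7% with 1.5 µM. Replicate 1 with vehicle stood apart from the other vehicle libraries in both genes, and still lay below every treated one. At 10 min the means were 40.1% ± 2.24 against 11.7% ± 1.85 in PCBP1 and 44.8% ± 1.13 against 12.01% ± 0.338 in PCBP2. In study 2 they were 28.98% ± 2.45 against 10.6% ± 0.593, and 32.4% ± 2.84 against 10.4% ± 1.60. Among 893 transcripts of 300 to 400 codons with at least 100 reads in every library, the median share at 60 min of study 1 was 8.61% with vehicle and 8.43% with 1.5 µM, and 4 of them exceeded PCBP1 and 3 exceeded PCBP2 at 1.5 µM. At 10 min the median was 8.22% with vehicle and 9.72% with 1.5 µM, and 5 and 3 exceeded them. In study 2 it was 10.6% and 10.8%, and 12 and 7 did.

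**Figure D3:**
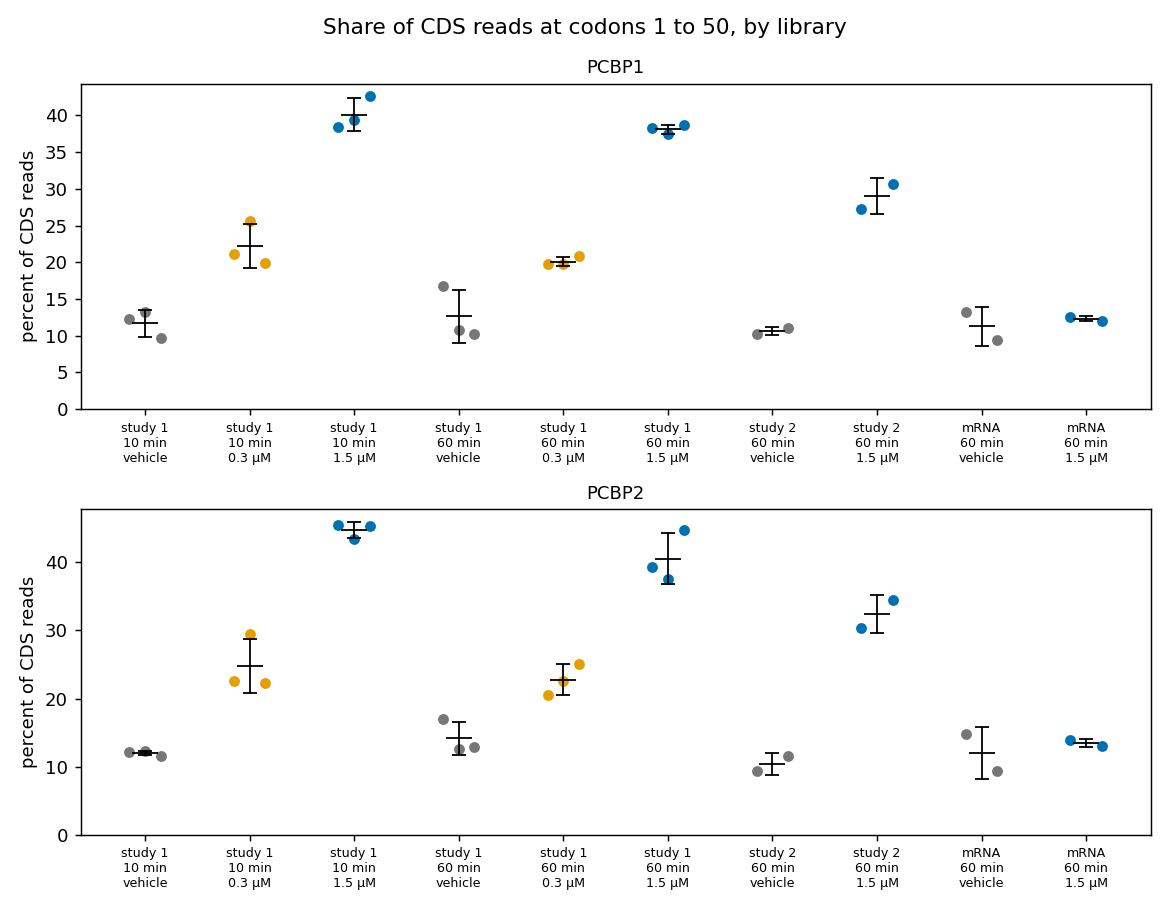
Share of CDS reads at codons 1 to 50, in percent (vertical axis, from 0), in each library by study, time and treatment, for PCBP1 above and PCBP2 below. Points are libraries and bars the mean ± SD of 2 or 3. The 0.3 µM libraries lie between vehicle and 1.5 µM, and the mRNA-seq libraries lie near the vehicle ribo-seq libraries.

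Dmax, the largest lead of the treated over the vehicle cumulative read profile, was 0.275 at codon 34 in PCBP1 and 0.289 at codon 34 in PCBP2 at 60 min of study 1. Divided by the root mean square of Dmax in 300 transcripts of like read number, these gave 6.48 and 4.64, ranked 4 and 10 of 11442 transcripts. No mean was subtracted, and all ranks given with Dmax are ranks of this ratio. In study 2 Dmax was 0.193 (rank 8) and 0.230 (rank 6 of 11405), and at 10 min 0.305 (rank 28) and 0.338 (rank 20 of 11422). In the 3 same-numbered pairs of libraries at 60 min it ran from 0.242 to 0.295 in PCBP1 and from 0.261 to 0.330 in PCBP2.

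At 0.3 µM codon 20 was higher, the share near the start larger and the level after codon 50 lower than with vehicle. The vehicle libraries are those that took part in the choice of the genes and of the codon, so these values too are given with no test. At codon 20 PCBP2 measured 28.6, 16.3 and 24.3 RPM at 10 min against 4.41, 3.28 and 4.71 with vehicle, and 16.3, 14.4 and 25.8 at 60 min. PCBP1 measured 18.2, 12.98 and 12.99 at 10 min against 3.66, 3.36 and 6.01, and 9.44, 9.10 and 11.003 at 60 min. The groups did not overlap at either time in either gene. At 60 min 3.11% of 189418 codons over all transcripts were higher in this way, and at 10 min that share was not taken. Over both times the mean, taken on the log2 scale, was 5.53 times vehicle in PCBP2 and 2.51 times in PCBP1. It was higher in 6 of 6 same-numbered pairs, and the share of all codons that were so was not taken. At codon 32 PCBP2 measured 14.9, 12.8 and 10.3 RPM at 60 min with 0.3 µM.

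The share of CDS reads at codons 1 to 50 was higher at 0.3 µM by 8.97 percentage points in PCBP1 and 10.7 in PCBP2 over both times. It was 22.2% ± 3.02 at 10 min and 20.1% ± 0.633 at 60 min in PCBP1, and 24.8% ± 4.02 and 22.8% ± 2.28 in PCBP2 (SD, n = 3). Own reads after codon 50 were 0.734 of vehicle in PCBP1 and 0.793 in PCBP2. They were lower in 6 of 6 pairs, and the share of all transcripts that were so was not taken. PCBP1 measured 456, 417 and 465 RPM at 10 min and 414, 460 and 451 at 60 min. PCBP2 measured 483, 524 and 526 at 10 min and 583, 552 and 567 at 60 min.

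In edgeR's quasi-likelihood fit the log2 fold changes after codon 50 at 10 min were -0.46 (SE 0.118) for PCBP1 and -0.42 (SE 0.119) for PCBP2. At 60 min they were -0.41 (SE 0.114) and -0.23 (SE 0.101). Over all transcripts the fit called none at 0.3 µM. Of 10855 transcripts at 10 min, 0% passed and 110 had an unadjusted p under 0.05, and of 10870 at 60 min, 0% passed and 99 did. DESeq2 called 4 and 0. Same-numbered libraries deviated together at both times by the rule that the correlation of each pair exceed 0.1. The correlations were 0.169, 0.109 and 0.519 at 10 min, and 0.433, 0.425 and 0.543 at 60 min. With the replicate block 5 transcripts passed at 60 min. The log2 fold change at 60 min minus that at 10 min was 0.04 (SE 0.155) in PCBP1 and 0.17 (SE 0.141) in PCBP2.

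Of the codons with enough reads at 60 min, 8 of 23 in the first 33 of PCBP1 and 10 of 22 in PCBP2 were higher in every 0.3 µM library than in every vehicle library, where 3.11% of 189418 codons over all transcripts were. After codon 33 it was 1 of 184 in PCBP1 and 4 of 227 in PCBP2, and 30 and 20 were lower, where 1.94% were lower over all transcripts. Codons 18, 19, 20, 21, 28 and 32 were among the higher codons in both genes. Dmax was 0.0888 at codon 90 in PCBP1, ranked 9 of 11458, and 0.0952 at codon 34 in PCBP2, ranked 7. Its place varied among the same-numbered pairs, at codons 345, 70 and 91 in PCBP1 and 228, 44 and 53 in PCBP2. At 10 min it was 0.126 at codon 33, ranked 159 of 11530, and 0.147 at codon 48, ranked 69.

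In RPM, the mRNA-seq reads after codon 50 were no lower at 1.5 µM in either gene. PCBP1 measured 436 and 479 RPM at own codons after codon 50 with vehicle and 502 and 496 with 1.5 µM, and PCBP2 780 and 788 against 788 and 793. Over the whole CDS the log2 fold change was 0.13 (SE 0.0790, 95% interval -0.05 to 0.30) for PCBP1 and 0.02 (SE 0.0803, interval -0.16 to 0.20) for PCBP2, with edgeR adjusted p = 0.999 for each. With codons after 50 counted and edgeR's scaling, PCBP2 had -0.0011. In this comparison 0% of 11812 transcripts passed, 228 had an unadjusted p under 0.05, and DESeq2 called 1. The share of mRNA reads at codons 1 to 50 was 13.2% and 9.41% with vehicle and 12.6% and 12.1% with 1.5 µM in PCBP1, and 14.8% and 9.35% against 13.9% and 13.1% in PCBP2. The codon 20 mRNA reads of PCBP2 were 2.73 and 1.36 RPM with vehicle and 3.14 and 2.82 with 1.5 µM. Those of PCBP1 were 1.90 and 2.36 with vehicle and 2.39 and 4.07 with 1.5 µM. In both genes the 1.5 µM libraries were the higher. With 2 libraries per group and no share over all codons, nothing is read from this. Per the study a sample gave both kinds of library, and the fit of their ratio, given next, had no block for sample. Footprints per mRNA read after codon 50, the translational efficiency, was 1.52 and 1.33 with vehicle and 0.522 and 0.505 with 1.5 µM in PCBP1, and 0.743 and 0.719 against 0.405 and 0.370 in PCBP2. As a log2 change these were -1.45 (SE 0.105) and -0.90 (SE 0.0985), in a comparison in which 0.13% of 11524 transcripts, or 15, passed, while 214 did without mRNA-seq vehicle replicate 4 and 7 to 10 without any one of 6 of the other 7 libraries.

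The paralogs stood at different levels relative to each other in footprints and in mRNA. Per own codon after codon 50, PCBP2 had 1.87 ± 0.113 times the mRNA-seq reads of PCBP1 with vehicle (SD, n = 2), but 0.959 ± 0.0103 times its footprints in the same study. In study 1 with vehicle its footprints were 1.21 ± 0.0648 times those of PCBP1 at 10 min and 1.24 ± 0.0698 times at 60 min (SD, n = 3). At 1.5 µM the ratio was 1.36 ± 0.0957 at 10 min, 1.64 ± 0.156 at 60 min and 1.30 ± 0.0358 in study 2. On the log2 scale of own reads, not per codon, the ratio at 60 min of study 1 was 0.26, 0.18 and 0.10 with vehicle and 0.73, 0.57 and 0.46 with 1.5 µM, without overlap. At 10 min it was 0.23, 0.15 and 0.08 against 0.29, 0.23 and 0.43, where the ranges met at 0.23. At 0.3 µM it was 0.08, 0.33 and 0.18 at 10 min and 0.49, 0.26 and 0.33 at 60 min. The 0.3 µM difference over both times was 0.11, with the ratio higher in 5 of 6 same-numbered pairs, and the groups overlapped at both times.

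**Figure D4:**
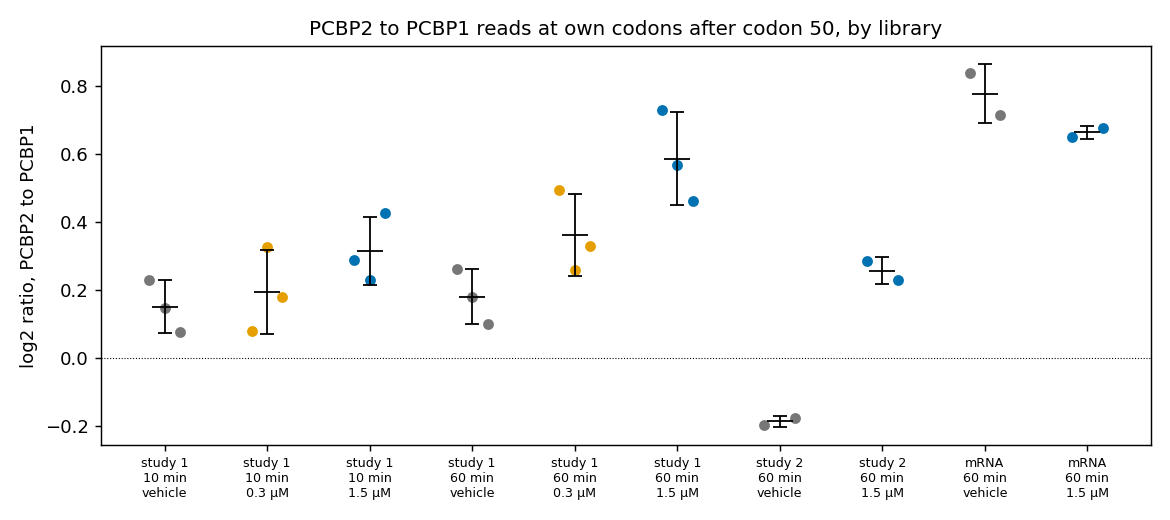
Log2 ratio of PCBP2 to PCBP1 reads at own codons after codon 50 (vertical axis) in each library, by study, time and treatment (horizontal axis). Points are libraries, bars the mean ± SD of 2 or 3, and the dotted line marks equal reads. The 1.5 µM libraries at 60 min of study 1 lie between 0.46 and 0.73 and the vehicle libraries between 0.10 and 0.26.

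For genes other than the pair, the fit at 1.5 µM is given with its calls. The lists were drawn up with earlier results of these data known, so a call is not independent support. Of 3 other poly(C)-binding genes listed, the 2 tested did not pass at 60 min, where 0.177% of all transcripts did. HNRNPK, which binds the same cytosine-rich RNA, had a log2 fold change of -0.05 (SE 0.109) after codon 50 at 1.5 µM and 60 min, and PCBP4 0.20 (SE 0.127). Among 28 other KH-domain genes tested at 60 min, of 32 listed, none passed, with a median of -0.07 beside 0.00 over all transcripts tested. Of the same list, 1 of 28 was lower at 10 min, where 1.95% of all transcripts passed, and 1 of 29 in study 2, where 0.264% did. Both times this was IGF2BP2, which binds mRNAs through KH domains. Its log2 fold change was -1.07 (SE 0.130, edgeR adjusted p = 0.000839) at 10 min, -0.59 (SE 0.159, adjusted p = 0.693) at 60 min and -0.53 (SE 0.0876, adjusted p = 0.0332) in study 2. Without vehicle replicate 4 of study 2 its edgeR adjusted p there was 0.164. NOVA1, QKI and TDRKH, which did not pass, had 0.56 (SE 0.285), 0.25 (SE 0.145) and -0.24 (SE 0.209) at 60 min. In the same order they had -0.41, 0.08 and -0.05 at 10 min and -0.12, 0.15 and 0.08 in study 2, so NOVA1 and TDRKH did not keep 1 direction.

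Of 17 iron-handling genes listed, 15 were tested and 1 passed at 10 min, none at 60 min and none in study 2, where 1.95%, 0.177% and 0.264% of all transcripts passed. TFRC, the transferrin receptor, was lower at 10 min with a log2 fold change of -0.52 (SE 0.108, edgeR adjusted p = 0.045), and had -0.23 (SE 0.161) at 60 min and -0.20 (SE 0.0593) in study 2. Its call at 10 min was lost without 1.5 µM replicate 1 (edgeR adjusted p = 0.22), 1.5 µM replicate 2 (0.321) or vehicle replicate 1 (0.154), and with all 18 libraries in 1 fit (0.205). FTH1, the ferritin heavy chain, had 0.27 (SE 0.113) at 60 min, EGLN1, an iron-dependent prolyl hydroxylase, 0.19 (SE 0.142), and HIF1AN, an iron-dependent asparaginyl hydroxylase, -0.13 (SE 0.147), and these did not pass. In the same order these had -0.20, 0.24 and -0.16 at 10 min and 0.07, 0.14 and -0.12 in study 2. The median of the 15 was 0.01 at 60 min and -0.18 at 10 min, beside 0.00 over all transcripts at both times. At 10 min 6 of the 15 had an unadjusted p under 0.05, 4 lower and 2 higher, where 1949 of 10745 transcripts did. At 0.3 µM and in mRNA-seq 0% of all transcripts passed in edgeR, and so no gene of the 3 lists. There 1 of 28 KH genes at 10 min and 2 of 29 in mRNA-seq had an unadjusted p under 0.05, where 110 of 10855 and 228 of 11812 transcripts did.

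Over the 18 ribo-seq libraries of study 1, the level of PCBP1 after codon 50 went most closely with MDK (Pearson's r = 0.973), RPL27 (0.952), SUMF2 (0.948), CD99 (0.946) and TM2D3 (0.946), out of 9397 transcripts compared, and with PCBP2 r was 0.967. For PCBP2 the transcripts were ENST00000621878 (0.956), which the annotation used did not name, BCAP31 (0.946), RPL27 (0.944), EMC7 (0.939) and GINS1 (0.935). The libraries share doses and vehicle groups, so these are descriptions and carry no p-value.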

How the data were processed

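The authors aligned ribo-seq and mRNA-seq reads to 1 transcript per gene with Bowtie (version 1.1.2), and selected those transcripts with kallisto (version 0.42.5), both as in the submitters' processing notes. Their reference was GRCh38. Per the study's methods, the alignment seed was 23 bases and every equally good alignment was kept, except for reads with many such sites, which were left out. The deposited files hold raw counts of reads per codon, assigned by the inferred P-site. Here 11270 of 12325 transcripts were named from GENCODE annotation of the same build.

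Counts after codon 50 (whole CDS for mRNA-seq) were tested with edgeR 4.0.16 in R 4.3.3 (filterByExpr, TMM, quasi-likelihood), Benjamini-Hochberg adjusted over all transcripts, at a false discovery rate of 0.1. DESeq2 1.42.0 was an alternative. Own-codon rows were added to each fit and left out of counts of calls. The rows of both genes with shared codons kept stayed in these counts. They are among the calls at 1.5 µM in both studies and for translational efficiency. The main fits, that of translational efficiency among them, had no block for sample. Values per library are RPM, reads scaled to the library's CDS reads, and 7 of them are described at 0.3 µM. Exact permutation tests planned for those 7 are not given, because their vehicle libraries took part in the choice of the genes. Scripts were tested on simulated data, where false calls were more frequent than the nominal rate at 0.3 µM and 60 min. The study's methods call the libraries of study 1 biological replicates, without saying what was kept separate, so p-values measure the spread between these libraries. Same-numbered libraries deviated together at 0.3 µM and at 1.5 µM for 60 min (correlations 0.109 to 0.543 over 9298 to 9520 transcripts), but not at 1.5 µM for 10 min by the rule that each pair exceed 0.1 (0.233, 0.206 and 0.0458). The 2 pairs of study 2, too few for that rule, gave 0.269 each in ribo-seq and 0.0852 in mRNA-seq.

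The members and lists were chosen with earlier results of these data known. Named genes were, in 3 lists (poly(C), other KH, iron handling), those past the rate and up to 3 more by size of change at 1.5 µM and 60 min, and the 5 closest to each member by Pearson's r.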

Additional observations from a re-analysis of the deposited data

How the results depend on the processing

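Of the alternatives, 395 values kept their direction and side of the threshold, 42 moved by more than the spread or by over 1.5 times, 2 changed sign and 1 passed where it had not, in a test of the 0.3 µM ratio that is not given here. Counting all codons of a transcript, or leaving out a library for Dmax, was chosen after seeing the data. Counting the whole CDS gave log2 fold changes at 1.5 µM of -0.97 (PCBP1) and -0.69 (PCBP2) at 10 min, -0.84 and -0.40 at 60 min, -1.01 and -0.49 in study 2 and -1.14 and -0.52 for translational efficiency, because it adds the codons near the start that were higher, and called 95, 8, 16 and 4 transcripts. In mRNA-seq PCBP2 was -0.0011 with codons after 50 counted. The replicate block called 1171 at 10 min, 69 at 60 min, 109 in study 2 and 5 at 0.3 µM and 60 min, and with it neither gene passed in mRNA-seq. DESeq2 called 611 at 1.5 µM and 10 min, 4 at 0.3 µM and 10 min and 1 in mRNA-seq. A rate of 0.05 called 91 and a fit of all 18 libraries 61 at 10 min.

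Leaving out 1 library called 26 to 1675 transcripts at 1.5 µM and 10 min, the most without vehicle replicate 3, 26 to 134 in study 2, the most without 1.5 µM replicate 5, 7 to 214 for translational efficiency, the most without mRNA-seq vehicle replicate 4, and 0 to 2 in mRNA-seq. Of the members, PCBP2 ran from -0.96 to -0.85 in study 2, from -0.95 to -0.86 for translational efficiency and from -0.0216 to 0.0719 in mRNA-seq, and PCBP1 from -1.53 to -1.39 for translational efficiency. Dmax of PCBP2 in study 2 ran from 0.207 to 0.254, and the 0.3 µM ratio from 0.0788 to 0.141.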
